A study of Mus musculus with 8 samples.

Results

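Myrf, its paralog Myrfl and its partner Tmem98 were followed in embryonic mouse lung at E13.5. They were taken as the rows of the deposited count table whose gene identifiers map to these symbols, and all 3 were found among the 55401 genes of the table. Mutant libraries, 4 in number, have a genotype that the labels write as Tbx4tetOcre_MyrfE6_mutant, and 4 libraries are written as cre control. The labels do not say what the E6 allele changes, whether the cre control also carries it, when Cre was induced, in which lung cells it acted, or how many embryos made up a library. Tbx4, the gene after which the driver is named, is known from the mesenchyme of the developing lung. Separate litters or cultures are not named for the libraries of a group. The p-values therefore measure the spread between these libraries, which may be partly technical.

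MYRF is made as a transcription factor tethered to the endoplasmic reticulum membrane. It assembles into trimers that cut themselves, and the released fragment enters the nucleus and binds DNA. It is best known for switching on myelin genes in oligodendrocytes, and it is also made in mesothelium, the cell sheet that covers the lung. TMEM98 is a membrane protein that binds MYRF and blocks its self-cleavage. MYRFL is the closest relative of MYRF in the mouse, and less is known of its role. Changes in human MYRF have been linked to defects of the heart, the urogenital tract and the diaphragm, and changes in both MYRF and TMEM98 to small eyes.

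Totals ranged from 17819285 to 48679134 counts in mutant libraries and from 17799899 to 19032389 in control libraries. Levels are given as CPM, counts per M counts (M for mega) after scaling by trimmed means of M-values (TMM), and per kilobase of exon where genes are set against each other. The floor of 3 counts lay between 0.0616 and 0.169 CPM per library and covers counting error only. Lung markers were present in every library: the lung epithelial factor Nkx2-1 averaged 188 ± 7.92 CPM in mutant and 175.5 ± 12.3 CPM in control libraries, and Tbx4 262 ± 5.93 and 272 ± 5.99 CPM (SD, n = 4 each). Along the leading principal component (26.7% of the variance), mutant replicate 4 (-4.12) lay beside control replicate 4 (-4.96), away from the other mutants (12.5 to 23.9). Sex-linked transcripts also differed: mutant replicates 1 and 2 had Y-linked transcripts and almost no Xist, control replicates 2 and 3 had Xist and almost no Y-linked transcripts, and the other 4 libraries had both. Sex-linked levels were thus not balanced between the groups. The labels give no sex.

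Each of the 3 genes was counted over its own exons. Myrf (ENSMUSG00000036098.15) is a minus-strand gene on chromosome 19 of GRCm38, between 10208272 and 10240748, with 26 separate exon blocks in the deposited table that sum to 8562 bases. Myrfl (ENSMUSG00000034057.8) spans 116776535 to 116896919 of chromosome 10, also on the minus strand, with 25 blocks and 3164 bases. Tmem98 (ENSMUSG00000035413.8) spans 80810175 to 80822033 of chromosome 11 on the plus strand, with 7 blocks and 1633 bases. No other gene of the table overlapped the span of any of the 3, on either strand. The longest coding transcript of Myrf in GENCODE vM21, Myrf-201, has 27 exons and 5674 bases. Its 25 internal exons are 62 to 280 bases long, so each makes up 1.09% to 4.93% of the transcript, and the last exon makes up 38.7%. Counts summed over all exons therefore cannot show whether 1 internal exon is missing from the remaining Myrf transcripts.

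The relation between Myrf and Myrfl is visible in their exons. In 6 places, Myrf-201 and the Myrfl transcript Myrfl-201 have a wholly coding exon of the same size at the same offset in order, exon 8 of Myrf against exon 7 of Myrfl and onward. Over these 786 bases, 67.8% of positions were identical, with 62.2% to 75.7% per exon. The most similar pair, of 111 bases, is exon 10 of Myrf (chr19:10219522-10219632, minus strand) and exon 9 of Myrfl (chr10:116831458-116831568, minus strand), both on GRCm38. They are shown because they bear on whether reads of one gene could be counted for the other, 5′ to 3′, with the 27 positions that differ in capitals.
Myrf exon 10: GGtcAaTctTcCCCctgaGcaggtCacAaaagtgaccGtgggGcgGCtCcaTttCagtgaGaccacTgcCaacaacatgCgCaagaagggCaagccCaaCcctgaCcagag
Myrfl exon 9: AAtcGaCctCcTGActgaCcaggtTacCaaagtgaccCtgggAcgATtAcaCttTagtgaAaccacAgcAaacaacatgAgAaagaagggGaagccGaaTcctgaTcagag
The longest run shared without a difference by any transcripts of the 2 genes was 20 bases, in exon 15 of Myrf-201 (chr19:10216753-10216772) and exon 14 of Myrfl-201 (chr10:116803540-116803559).
Longest shared run: ATCTTCATGGAGAATGTGGG
Of all 8751 different stretches of 50 bases in Myrf transcripts, 0 occurred in a transcript of another gene on either strand. The same held for all 3115 stretches of Myrfl and all 1584 of Tmem98. The sources used here do not give the read length.

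Myrf fell in the mutant lung, and the groups did not overlap. Mutant replicates 1 to 4 held 92.4, 84.4, 85.3 and 91.6 CPM, against 114, 115.5, 107 and 120.5 CPM in control replicates 1 to 4. Every mutant library lay below every control library, and the gap between the groups was wider than the range within the mutants. Of all tested genes, 7.37% had groups that did not overlap in CPM, in either direction. Means were 88.4 ± 4.17 CPM in mutant and 114 ± 5.64 CPM in control libraries (SD, n = 4 each). The log2 fold change was -0.37 (SE 0.044, 95% interval -0.46 to -0.28, adjusted p = 0.000211 in edgeR's quasi-likelihood test), a fall to 0.774 of the control level, or -22.6% with an interval of -27.4% to -17.5%. Myrf was 1 of the 2 genes of the 3 that could be tested, and 1.49% of 15788 genes passed in either direction, 0.931% as lower and 0.564% as higher. By adjusted p it ranked at position 9 of all genes tested, while its fold change was moderate in size, larger than that of 92.2% of genes.

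The counts behind these levels were large enough to separate the groups. Myrf had 2344, 4118, 1748 and 1628 counts in mutant replicates 1 to 4 and 2152, 2048, 1892 and 2137 in control replicates 1 to 4. Counting error was 1.56% to 2.48% per library. The spread between libraries was wider, with a coefficient of variation of 4.72% in mutant and 4.94% in control libraries.

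**Figure D1:**
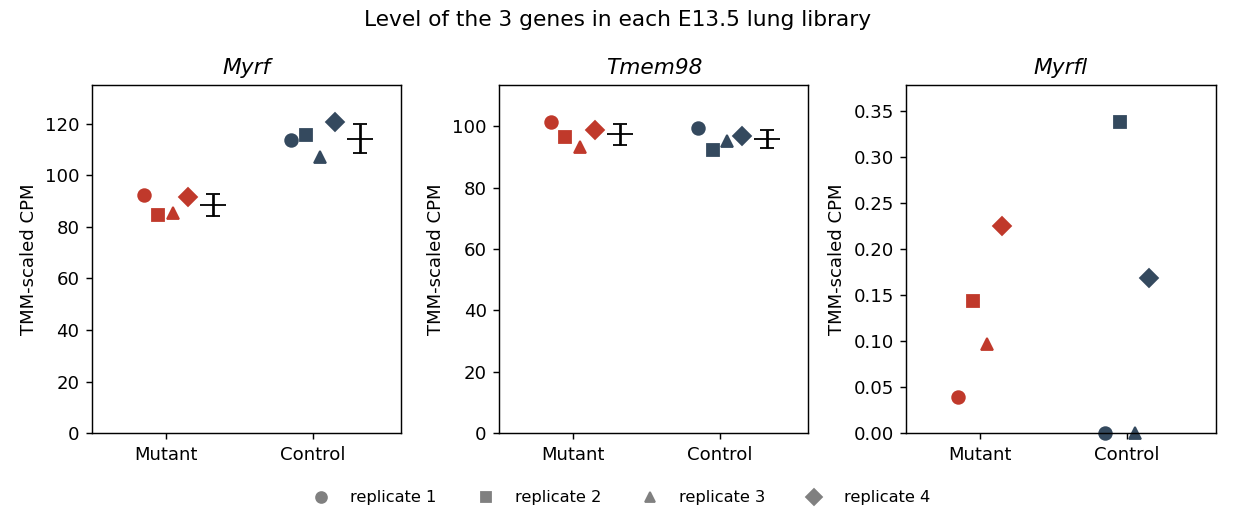
TMM-scaled CPM of Myrf, Tmem98 and Myrfl (1 panel each, linear axes from 0) in the 4 mutant and 4 control libraries, 1 symbol per library, with the mean and SD beside the points for Myrf and Tmem98. Myrf lies at 84.4 to 92.4 CPM in mutant and 107 to 120.5 CPM in control libraries, Tmem98 overlaps between the groups, and Myrfl reaches at most 0.338 CPM.

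Mutant libraries that stood apart in other ways all lay below the controls for Myrf. Mutant replicate 2, the deepest library and the farthest along the first principal component (23.9), held the lowest level, 84.4 CPM. Mutant replicate 4, which lay beside a control on the first principal component, held 91.6 CPM, below the lowest control. Among the 4 libraries that had Y-linked transcripts as well as Xist, mutant replicates 3 and 4 held 85.3 and 91.6 CPM and control replicates 1 and 4 held 114 and 120.5 CPM. With the level of 4 Y-linked genes (Ddx3y, Eif2s3y, Kdm5d and Uty) as a covariate, the log2 fold change of Myrf was -0.40 (edgeR, adjusted p = 0.00276).

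**Figure D2:**
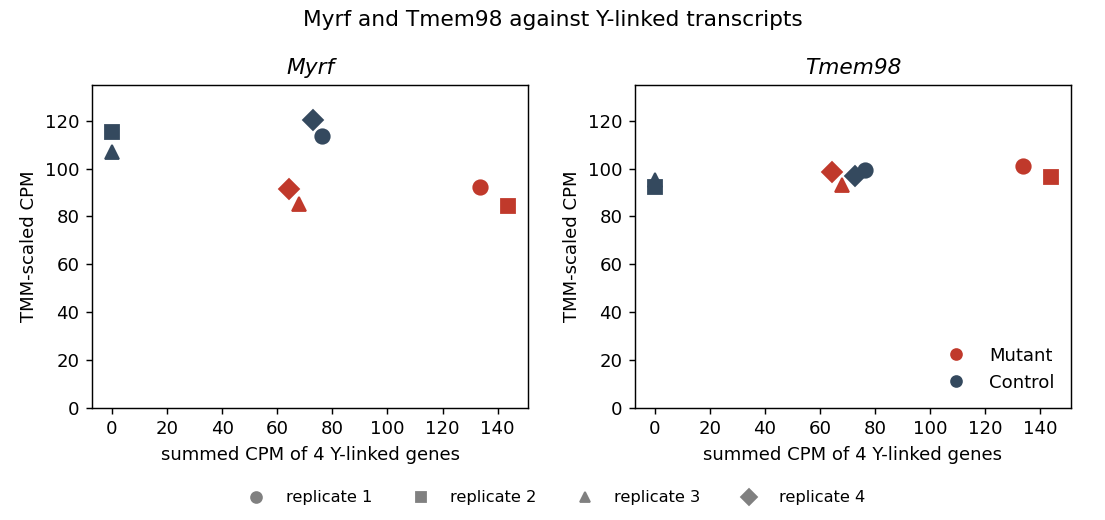
TMM-scaled CPM of Myrf (left) and Tmem98 (right) against the summed CPM of 4 Y-linked genes, 1 symbol per library, mutant in red and control in dark blue. At Y-linked sums between 64.2 and 76.2 CPM, where both groups have 2 libraries, Myrf is lower in the mutants, and Tmem98 overlaps.

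Tmem98 did not pass, and its interval was narrow. Mutant replicates 1 to 4 held 101.3, 96.6, 93.2 and 98.7 CPM, against 99.3, 92.2, 95.3 and 96.7 CPM in control replicates 1 to 4. The groups overlapped almost completely. Means were 97.4 ± 3.44 CPM in mutant and 95.9 ± 2.98 CPM in control libraries (SD, n = 4 each), and edgeR gave a log2 fold change of 0.02 with an SE of 0.0391 (adjusted p = 0.852). The 95% interval ran from -4.00% to 7.57%, so a fall of the size seen for Myrf lay outside it. The sign was not stable: with Y-linked genes as a covariate the log2 fold change was -0.02 (adjusted p = 0.944).

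Myrfl was close to undetected in E13.5 lung. Mutant replicates 1 to 4 had 1, 7, 2 and 4 counts, against 0, 6, 0 and 3 counts in control replicates 1 to 4. At least 1 count was present in all 4 mutant and in 2 control libraries, and 2 mutant and 3 control libraries were at or under 3 counts. Pooled over libraries, the level was 0.125 CPM in mutants (exact 95% Poisson interval 0.0683 to 0.21, 14 counts) and 0.124 CPM in controls (0.0568 to 0.236, 9 counts), intervals that cover counting error only. Myrfl did not pass the low-count filter, and an exact two-sided permutation test of its CPM gave p = 1, where the smallest p that 4 against 4 libraries allow is 0.0286. With no filter, edgeR gave an adjusted p of 0.999. No fold is given at these counts, and a difference between the groups was not detectable at this depth.

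Per kilobase of exon, the order of the levels was Tmem98, Myrf, Myrfl in both groups. Tmem98 averaged 59.7 ± 2.11 CPM per kilobase in mutant and 58.7 ± 1.83 in control libraries. Myrf averaged 10.3 ± 0.488 in mutant and 13.3 ± 0.658 in control libraries. Myrfl averaged 0.0399 in mutant and 0.0401 CPM per kilobase in control libraries. All neighbours in this order were separated by far more than the spread between libraries. The deposited exon length of Myrf includes blocks of 2899 and 408 bases, both longer than the longest internal exon of Myrf-201 (280 bases). Over the 5674 bases of Myrf-201 alone, its level would be 15.6 CPM per kilobase in mutant and 20.1 in control libraries, which leaves the order as it is. Among all tested genes, Tmem98 lay above 95.4% in mutant and 95.3% in control lung, and Myrf above 66.3% in mutant and 72.5% in control lung, per kilobase.

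The transcripts of the inhibitory partner were thus in excess of those of Myrf, and more so in the mutant. The ratio of Tmem98 to Myrf, per exon base within a library and so free of scaling, was 5.75, 6.001, 5.73 and 5.65 in mutant replicates 1 to 4. It was 4.58, 4.19, 4.68 and 4.21 in control replicates 1 to 4. The groups did not overlap, and as Tmem98 hardly changed, this restates the fall of Myrf. Among single genes by CPM, 7.37% did not overlap, which is a share for levels and not for ratios. In bulk lung, the ratio does not show an excess within the cells that make Myrf. Mean ratios were 5.78 ± 0.153 in mutant and 4.41 ± 0.252 in control libraries (SD, n = 4 each), given as a description without a test. Over the length of Myrf-201 in place of the deposited exon length, a choice made after the data were seen, the ratios would be 3.83 ± 0.101 in mutant and 2.92 ± 0.167 in control libraries, with the same log2 difference between the groups. Over the 8 libraries the log2 levels of Myrf and Tmem98 had a Pearson r of -0.11, and 0.463 after the group means were removed.

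**Figure D3:**
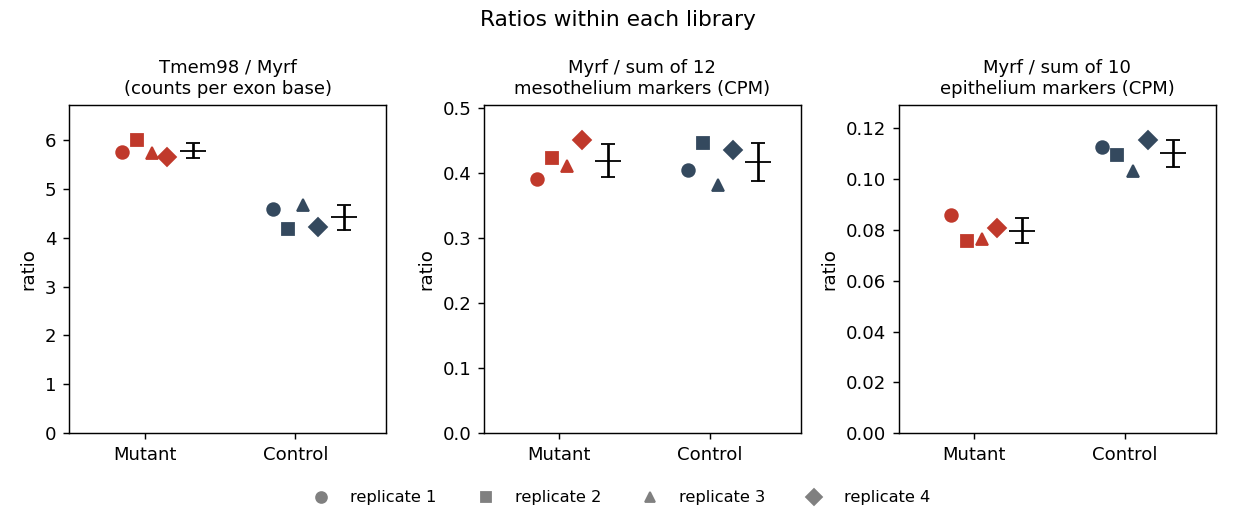
Ratio of Tmem98 to Myrf per exon base (left), of Myrf to the summed CPM of 12 mesothelium markers (middle) and of Myrf to the summed CPM of 10 epithelium markers (right), in each mutant and control library, with the mean and SD beside the points. The left ratio is higher (5.78 against 4.41) and the right ratio lower (0.0798 against 0.11) in mutants without overlap, and the middle ratio overlaps (0.419 against 0.416).

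Some markers of mesothelium fell as well. Of the 12 listed markers, all were tested, 4 fell, where 0.931% of all tested genes did, and 8 did not pass, 7 of those with negative and 1 with a positive log2 fold change; the median log2 fold change was -0.38, against 0.00 over all genes tested. The summed level was 199.5 to 236 CPM in mutant and 259 to 281 CPM in control libraries, and no marker was at 0. Nkain4, Rspo1 and Msln, among those that did not pass, had log2 fold changes of -0.08, -0.06 and 0.19. Upk3b, a uroplakin of the mesothelial surface, averaged 57.0 ± 3.39 CPM in mutant and 88.4 ± 3.49 CPM in control libraries (log2 fold change -0.63, SE 0.0465, adjusted p = 1.08e-06, edgeR). Log2 fold changes were -0.70 for the mesothelial transcription factor Wt1 (SE 0.0898, adjusted p = 0.000424), -0.80 for the membrane glycoprotein gene Gpm6a (SE 0.1, adjusted p = 0.000366) and -0.39 for the leucine-rich repeat gene Lrrn4 (SE 0.0837, adjusted p = 0.0258). Lrrn4 lost its call in 5 of 17 alternatives: with the Y-linked covariate, and without control replicates 1, 2 and 3 and mutant replicate 2 in turn, where its adjusted p reached 0.151.

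Set against the summed level of these markers, Myrf did not stand out. That sum mixes markers that fell more than Myrf, such as Upk3b (-0.63), and markers that hardly moved, such as Nkain4 (-0.08). The ratio of Myrf to their summed level was 0.391, 0.423, 0.41 and 0.451 in mutant replicates 1 to 4 and 0.404, 0.446, 0.381 and 0.435 in control replicates 1 to 4. The groups overlapped over nearly their whole range, with means of 0.419 ± 0.025 in mutant and 0.416 ± 0.0295 in control libraries (SD, n = 4 each). The difference was 0.01 on the log2 scale, or -0.03 with the geometric mean of the markers in place of the sum. In bulk lung, fewer mesothelial cells and less RNA per cell cannot be told apart, and the part of these markers in the result for Myrf was not tested.

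No epithelial marker passed. Of 10 listed markers, all were tested and all lay above 0, at a median log2 fold change of 0.12. In edgeR 0 passed, with 8 at an unadjusted p under 0.05, and 0 passed with DESeq2 or limma-voom. The share of all tested genes at an unadjusted p under 0.05 is not given here. Such counts, in this and the following lists, therefore have no background to be set against. Cldn6, a claudin, averaged 203.4 ± 5.11 CPM in mutant and 192.9 ± 1.54 CPM in control libraries, and Epcam, an adhesion molecule, 189.5 ± 2.37 and 185.5 ± 3.71 CPM. The summed level was 1075 to 1133 CPM in mutant and 1009 to 1056 CPM in control libraries. The ratio of Myrf to this sum was 0.0798 ± 0.00476 in mutant and 0.11 ± 0.00527 in control libraries (SD, n = 4 each). Every mutant library lay below every control, where 7.37% of single genes did not overlap in CPM, a share for levels and not for ratios. The log2 difference was -0.47, against -0.37 for Myrf alone, so the ratio largely restates the fall of Myrf.

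**Figure D4:**
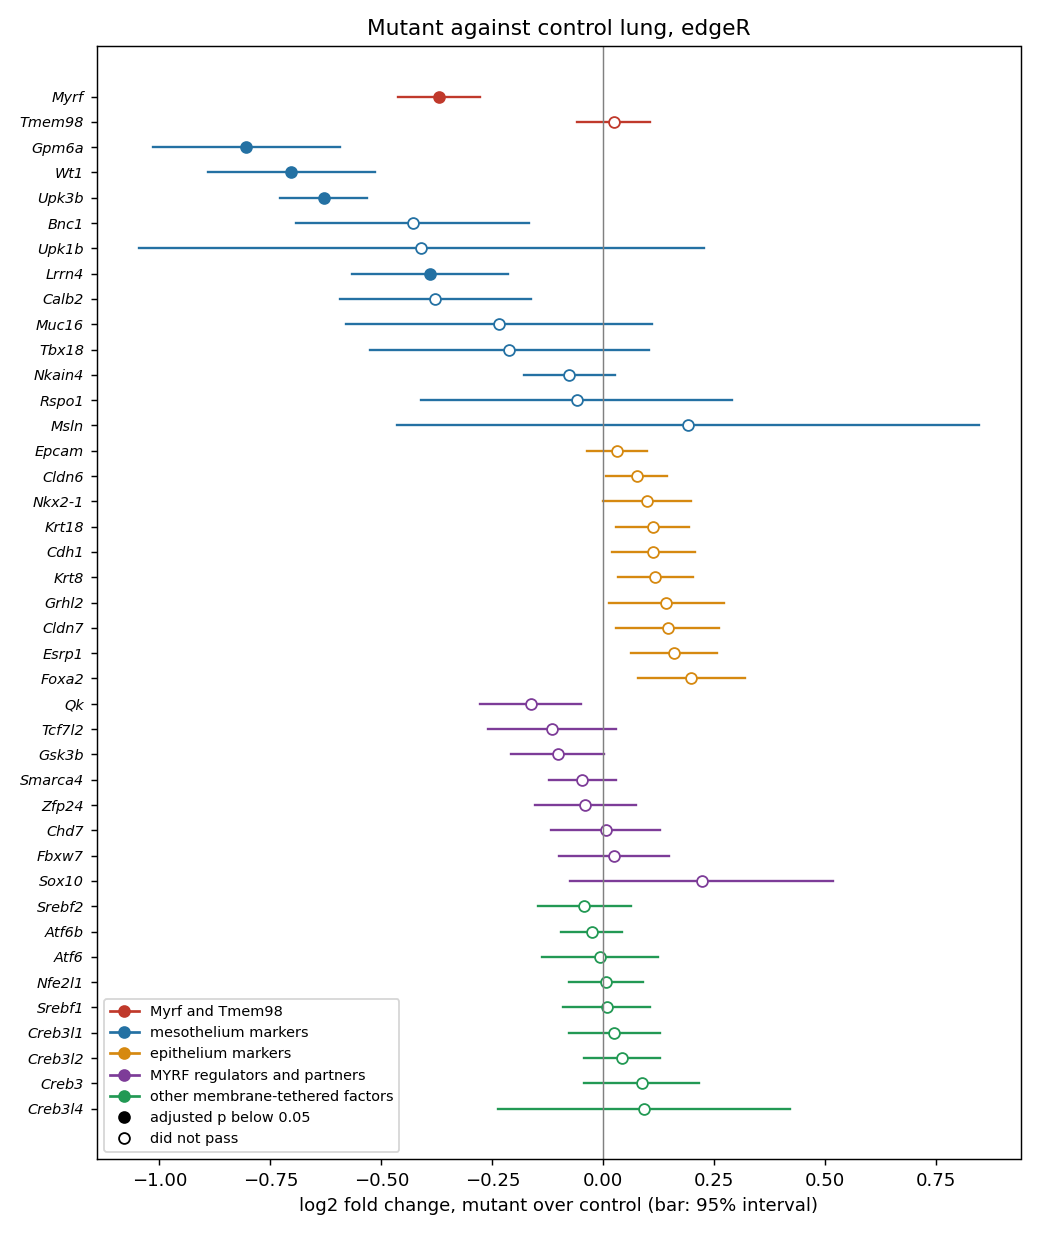
Log2 fold change of mutant over control with its 95% interval (edgeR) for Myrf and Tmem98 and for the tested genes of 4 lists; filled circles have an adjusted p below 0.05. Myrf (-0.37) lies among the mesothelium markers, 4 of which are filled, and Tmem98 (0.02) among the regulators and the other membrane-tethered factors, none of which is filled.

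No change was called among genes that act on MYRF elsewhere. Of 12 listed regulators and partners, 8 were tested and 0 passed in edgeR, DESeq2 or limma-voom, with 1 (Qk) at an unadjusted p under 0.05 and a median log2 fold change of -0.04. Smarca4, a chromatin remodeller, and Qk, an RNA-binding protein, were the most abundant. Smarca4 averaged 468 ± 21.0 CPM in mutant and 483.5 ± 12.03 CPM in control libraries. Qk averaged 189 ± 11.8 CPM in mutant and 212 ± 15.1 CPM in control libraries (log2 fold change -0.16, SE 0.0535, adjusted p = 0.16). Fbxw7, the substrate receptor of a ubiquitin ligase that marks MYRF for degradation, averaged 25.5 ± 1.001 CPM in mutant and 25.1 ± 0.833 CPM in control libraries. The oligodendrocyte factors Olig1, Olig2, Nkx2-2 and Zfp488 did not pass the low-count filter. Sox10, which activates Myrf in oligodendrocytes, averaged 3.90 ± 0.62 CPM in mutant and 3.34 ± 0.17 CPM in control libraries.

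The myelin genes that MYRF is best known for were mostly low. Of 12, 5 were tested and 0 passed in edgeR, with 3 at an unadjusted p under 0.05, 1 passing with DESeq2 and 0 with limma-voom. The log2 fold change was positive in 4 of the 5. Mog had no count in any library. Mbp, myelin basic protein, was the most abundant at 24.7 ± 1.07 CPM in mutant and 20.6 ± 1.75 CPM in control libraries (log2 fold change 0.26, SE 0.0691, adjusted p = 0.0638), followed by Cnp at 19.7 ± 0.218 and 18.7 ± 0.533 CPM. The groups did not overlap for either gene.

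No other transcription factor made as a membrane protein passed. Of 10 listed, 9 were tested and 0 passed in edgeR, DESeq2 or limma-voom, with 0 at an unadjusted p under 0.05 and a median log2 fold change of 0.01. Srebf2, a regulator of cholesterol synthesis, averaged 252 ± 16.7 CPM in mutant and 260 ± 16.0 CPM in control libraries. Nfe2l1, a regulator of proteasome genes, averaged 228 ± 13.48 CPM in mutant and 227 ± 4.45 CPM in control libraries.

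Genes that share a human disease with Myrf or Tmem98 were compared as well. Of 14 diaphragmatic hernia genes, all were tested, 1 fell, where 0.931% of all tested genes did, and 13 did not pass. The median log2 fold change was -0.06. The 1 that fell was Wt1, already counted among the mesothelium markers. Of 5 further genes known from small eyes, 1 could be tested, Best1, at 1.07 ± 0.209 CPM in mutant and 1.28 ± 0.473 CPM in control libraries (edgeR adjusted p = 0.772), and Mfrp, the next most abundant, averaged 0.0333 CPM in mutant and 0.0264 CPM in control libraries. Of 8 lung mesenchyme markers, all were tested and 1 fell, against 0.931% of all tested genes. This was the ligand Wnt2, at 91.4 ± 8.81 CPM in mutant and 115 ± 3.9 CPM in control libraries. Its log2 fold change was -0.33 (adjusted p = 0.00852, edgeR).

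The genes whose levels followed Myrf most closely over the 8 libraries were taken from 12285 genes whose mean log2 CPM was 1 or more. Smpd4, a sphingomyelinase, had the highest Pearson r (0.983), followed by the netrin receptor gene Unc5b (0.954), the zinc-finger factor gene Tshz1 (0.953), the transcriptional corepressor gene Drap1 (0.952) and the tRNA-modification gene Wdr4 (0.951). The mean level of all 5 was lower in mutant than in control libraries, though 3 of them did not pass. Since Myrf separated the groups, choosing genes by this correlation largely fixed that direction, which is therefore no separate result. The fold changes and adjusted p of these genes come from the same libraries as the choice. After the group means were removed, r was between 0.552 (Drap1) and 0.807 (Smpd4). Without the 2 libraries farthest from the median of Myrf, mutant replicate 2 and control replicate 4, r was 0.923 to 0.993. Their fold changes differed in size: Tshz1 fell by 0.38 and Unc5b by 0.24 in log2 units (SE 0.0619 and 0.0403, edgeR adjusted p 0.00943 and 0.00443), while Smpd4, Drap1 and Wdr4 had log2 fold changes of -0.07, -0.13 and -0.08 and did not pass (adjusted p 0.354, 0.068 and 0.317).

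For Tmem98 the same ranking gave Nelfe (0.972), a subunit of the negative elongation factor, Krtcap2 (0.963), Cenpn (0.96), Pole3 (0.96) and Fbxo16 (0.939). In edgeR none of the 5 had an adjusted p below 0.597, and r with the group means removed was 0.935 to 0.974. These values describe 8 libraries that share depth and sex composition in part, and with so many genes ranked they are given without a test.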

How the data were processed

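The deposited table holds raw counts, 1 column per library, without normalization. Per the file headers, featureCounts 1.6.4 summed exons per gene of GENCODE vM25 in paired mode on the reverse strand, without options that keep multi-mapping or multi-overlapping reads. The submitters' processing notes name STAR, DESeq2 and GRCm38; for STAR, the sources used here give no version. The exon length in bases, another deposited value (neither a score nor a count), was used only for levels per kilobase. Symbols were matched for 55141 of 55401 identifiers. Exon and transcript sequences came from GENCODE vM21 (GRCm38).

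Low counts were removed with filterByExpr, which left 15788 genes. All 8 libraries were fitted in edgeR 4.0.16 (R 4.3.3) with TMM scaling and robust quasi-likelihood F tests, two-sided, mutant over control. Adjustment was by Benjamini-Hochberg over all genes tested, with a threshold of 0.05. Log2 CPM used a prior count of 2. Alternatives used DESeq2 1.42.0, limma 3.58.1, other scalings, no filter, no robust estimation, a replicate block, a Y-linked covariate and the omission of each library. On simulated counts for the 15788 genes of this comparison, changes were set only in genes with a mean log2 CPM above 1. Of these, 62.3% of 1.25-fold, 89.3% of 1.5-fold and 97.1% of 2-fold changes were recovered, and 7.64% of calls were false. Recovery among genes at lower levels was not simulated. No pair of libraries in a group was a duplicate, since the chi-square per gene between them was 2.92 to 8.91.

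The members and the gene lists were chosen with earlier results of these data known. Named list genes are all changed members up to 6, or the 2 most abundant where none changed. Fbxw7, Sox10, Nkx2-1, Tbx4, Mog and the listed genes that did not pass the filter were named beside that rule after their values were seen. The 5 genes most like a member were ranked by Pearson correlation, leaving out provisional names.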

Additional observations from a re-analysis of the deposited data

How the results depend on the processing

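Myrf kept its direction and its call in all 17 alternatives, with log2 fold changes of -0.40 to -0.34 and adjusted p of 5.48e-14 to 0.00276; without each library in turn the range was the same, -0.40 to -0.34. Tmem98 did not pass in any of the 17 (adjusted p 0.653 to 0.979). Its log2 fold change turned to -0.0226 with the Y-linked covariate and was 0.00 to 0.05 without single libraries; the cause was not tested. The difference of Myrfl in mean CPM was -0.000443, turned to 0.000293 with total counts only, and ran from -0.0427 to 0.0700 without single libraries, which at 0 to 7 counts per library gives no direction. Without single libraries, the log2 difference between groups was 0.37 to 0.42 for the ratio of Tmem98 to Myrf, -0.03 to 0.04 for Myrf to mesothelium markers and -0.50 to -0.44 for Myrf to epithelium markers.

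The background was less stable. The count of 236 changed genes was 791 with no low-count filter, 359 with the DESeq2 Wald test, 142 without robust estimation and 68 with the Y-linked covariate. Leaving out single libraries gave 96 to 479: control replicate 1 left 100, control replicate 2 left 121, control replicate 3 left 96, mutant replicate 2 left 118 and mutant replicate 4 left 479. Changed genes in the 8 lists numbered 5, or 13 with no low-count filter, and ran from 4 to 7 without single libraries. With the replicate block the counts were 541 genes and 9 list genes, and Myrf kept its call (log2 fold change -0.37, adjusted p = 1.73e-05). These data do not settle whether replicate numbers pair the libraries. Same-numbered deviations had correlations of 0.0125 to 0.181, and differently numbered ones -0.171 to 0.133. Not every library correlated best with its own number.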
